A study of Mus musculus with 36 samples.

Results

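Muscle stem cells (MuSCs) of young mice with 1 floxed copy of Ccnd1 (HET) were compared with MuSCs of young mice with intact Ccnd1 (WT), gene by gene, by polyA RNA sequencing. The comparison used 7 of the 36 libraries of the series, chosen by their labels: 4 young HET and 3 young WT libraries, each from an individual male mouse. MuSCs, or satellite cells, lie beside the muscle fibre and regenerate it. All 7 mice were 3 months old, did not exercise and carried Pax7_CreERT2 (a tamoxifen-activated Cre recombinase driven by Pax7) and R26R_YFP (a reporter that Cre switches on) on a C57BL/6 background. Their genotypes were Ccnd1_+/+ for WT and Ccnd1_+/flox for HET. The WT mice thus shared the Cre, the reporter and the tamoxifen, and viable YFP-positive cells were sorted 6 weeks after tamoxifen. The 5 young Ccnd1_flox/flox (KO) and 3 old (18 months) Ccnd1_+/+ libraries with the same alleles and treatment entered the same fit, and 6 young C57BL/6 libraries from mice with a locked running wheel, sorted by surface markers, served in 1 alternative. Cre acted only in Pax7-expressing cells and their progeny, so HET describes the sorted cells and not the whole mouse.

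Cyclin D1, the product of Ccnd1, binds Cdk4 and Cdk6, and the complexes phosphorylate the retinoblastoma protein, which frees E2F factors to switch on S phase genes. Cyclins D2 and D3 share this role. Satellite cells in resting muscle are mostly out of the cell cycle, express Pax7, are held there in part by Notch signals, and raise cyclin D1 when they activate.

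Levels are given in RPKM, which divides reads by gene length and library size, and differences as HET minus WT on the log2 scale with the standard error (SE) of the fit. A gene is said to have risen, fallen or been called where limma gave an adjusted p under 0.05 over all 11337 genes. The sum of RPKM per library was 273837 to 327790 in the 7 libraries, and 10459 to 10571 genes exceeded 1 RPKM. Pax7 was present in each library at 16 RPKM or more, and the 25 satellite cell identity genes summed to 3336 to 3804 RPKM in WT and 2829 to 3422 in HET libraries. The 4 HET libraries stood apart in respects described below. Each held keratinocyte transcripts that the WT libraries lacked. Each also had lower summed markers of fibro-adipogenic progenitors than any WT or KO library, a sum made up largely of Gsn.

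The results turn in part on a microRNA locus and on a cytokine and a muscle stress gene whose proximal promoters hold well-known elements, so these sequences are shown first. They are RefSeq sequences of build GRCm38.p6, 5′ to 3′, and the upstream windows are counted from RefSeq starts. GENCODE, which gave the gene positions used elsewhere, starts Ankrd1 farther upstream, at 36120099. By that annotation the Ankrd1 window lies inside the gene. The hairpin of Mir23b (chr13:63300484-63300557, plus strand) has its 5p arm in capitals, and the mature 5p sequence has its seed (bases 2 to 8) in capitals. The 250 bases upstream of Il6 (chr5:30012864-30013113, plus strand) have in capitals a match to TGANTCA, the AP-1 element that Fos and Jun factors recognise, searched on both strands. The 250 bases upstream of Ankrd1 (chr19:36119845-36120094, minus strand) have in capitals matches to GGAATG, the MCAT element that TEAD factors recognise, searched on both strands.
Mir23b hairpin: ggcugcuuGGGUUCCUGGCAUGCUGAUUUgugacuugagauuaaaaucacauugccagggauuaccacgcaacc
mmu-miR-23b-5p: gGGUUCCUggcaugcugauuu
Il6 upstream: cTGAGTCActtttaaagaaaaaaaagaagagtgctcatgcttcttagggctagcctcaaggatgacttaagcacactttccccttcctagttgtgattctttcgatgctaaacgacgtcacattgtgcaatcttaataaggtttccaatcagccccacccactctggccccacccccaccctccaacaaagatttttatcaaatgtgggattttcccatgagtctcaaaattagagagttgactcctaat
Ankrd1 upstream: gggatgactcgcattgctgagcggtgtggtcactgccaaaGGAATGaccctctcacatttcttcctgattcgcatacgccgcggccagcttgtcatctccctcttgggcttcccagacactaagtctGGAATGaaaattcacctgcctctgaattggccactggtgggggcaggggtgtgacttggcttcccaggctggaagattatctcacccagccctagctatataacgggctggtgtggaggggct
The AP-1 sequence occurred 1 time in the Il6 window, and 6.75% of the 32851 RefSeq promoter windows of the same length hold it. The MCAT sequence occurred 2 times in the Ankrd1 window, and 12.6% of the windows hold at least 1 copy. These matches describe letters and not binding, and the elements do not overlap each other.

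Ccnd1 itself (ENSMUSG00000070348, mm10 chromosome 7, 144929931 to 144939925, minus strand) was lower in HET than in WT and lower again in KO. Its level was 11.2, 10.6 and 13.3 RPKM in the WT libraries and 8.13, 6.37, 7.08 and 7.14 RPKM in the HET libraries. The KO libraries had 3.4, 2.47, 2.07, 2.72 and 2.88 RPKM. The 3 genotypes did not overlap, and the mean level was 61.4% of WT in HET and 23.1% in KO. The HET difference was -0.70 on the log2 scale, 1.63-fold lower (two-sided exact permutation p = 0.0286 over 35 splits, the smallest these group sizes allow; limma adjusted p = 0.0261). With any 1 library left out the difference was -0.77 to -0.61, and limma lost the call without WT 2, WT 3, HET 2 or HET 4 (highest adjusted p = 0.081). Which exons were floxed is not given in the labels, so reads from exons that were kept may be part of these levels.

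Among the partners of Ccnd1, Ccnd2 (cyclin D2) rose. It stood at 3.76, 3.76 and 2.83 RPKM in WT and at 5.08, 5.22, 4.27 and 5.39 RPKM in HET, so every HET library lay above every WT library. The difference was 0.54 ± 0.13 (SE, adjusted p = 0.0314), and Ccnd2 averaged 4.84 ± 0.169 RPKM (SD, n = 5) in KO. The call was lost without WT 2, WT 3, HET 1, HET 2 or HET 4 (highest adjusted p = 0.103). Ccnd3 (cyclin D3) had 18.5 ± 2.13 RPKM in WT (SD, n = 3) and 16.9 ± 1.32 in HET (SD, n = 4), a difference of -0.13 ± 0.12 that did not pass (adjusted p = 0.552). The kinase genes Cdk4 (-0.12 ± 0.14) and Cdk6 (0.35 ± 0.30) did not pass either. By level in WT the order was Cdk4, Ccnd3, Ccnd1, Ccnd2 and Cdk6, and HET had the same order.

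**Figure D1:**
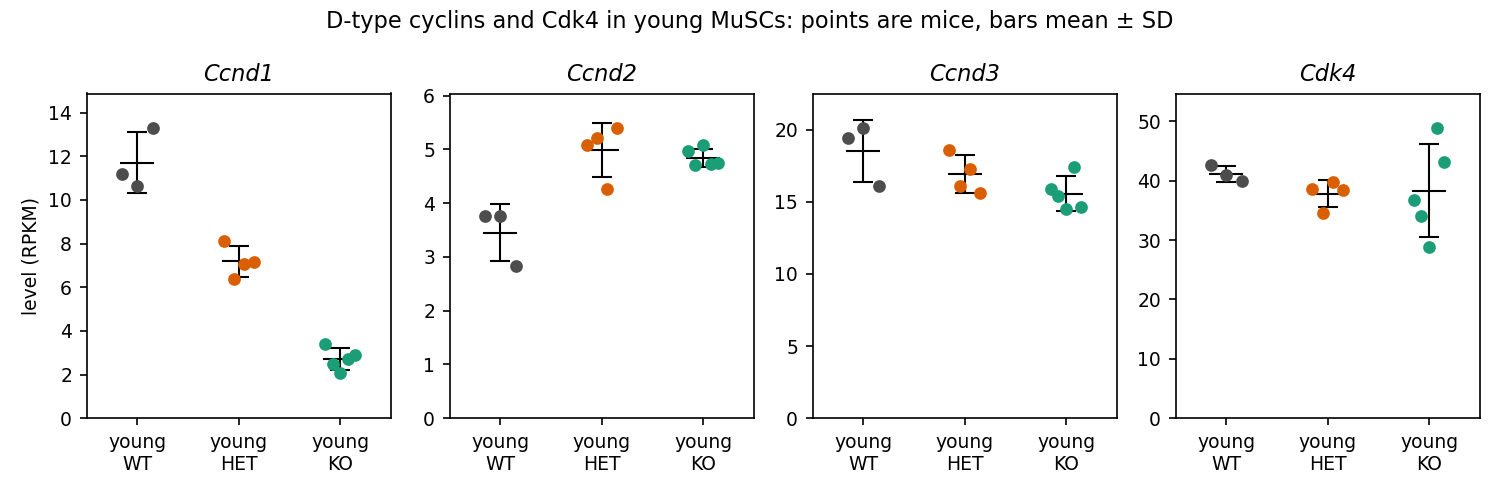
Levels of Ccnd1, Ccnd2, Ccnd3 and Cdk4 (RPKM, vertical axes from 0) in young WT (3), HET (4) and KO (5) libraries. Each point is 1 mouse and the bars are mean ± SD. Ccnd1 steps down from WT (11.7) to HET (7.18) to KO (2.71), while Ccnd2 is higher in HET (4.99) and KO (4.84) than in WT (3.45).

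The largest differences were keratinocyte transcripts, which are set apart here. Krt14 and Krt5 are the paired keratins of basal epidermal cells. Krt14 (mm10 chromosome 11, 100203162 to 100207548) had 41.8, 31.9, 42.8 and 95.8 RPKM in the HET libraries and at most 0.0184 RPKM in the WT libraries. Krt5 had 24.2, 14.3, 19.9 and 35.8 RPKM in HET and at most 0.032 RPKM in WT. In KO neither exceeded 0.0636 RPKM, and of the old WT libraries only number 2 held more than 0.05 RPKM of either, with 2.92 RPKM of Krt14 and 1.62 RPKM of Krt5. All 4 HET libraries were thus high, HET 4 the highest and HET 2 the lowest, and no other young library was. No fold is given, because WT values near 0.01 RPKM in adjusted data cannot be tied to reads.

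Of 28 listed keratinocyte markers 19 were measured, and 15 rose in HET with none lower, where 1.98% of all genes were called higher and 5.39% either way. Markers as low as Krt14 and Krt5 in WT and KO may be in the deposited gene set only through the HET libraries. The share of 15 in 19 may thus be partly fixed in advance, and it is not a test. The genes that rose include Krt15 and Krt17 of basal and stressed epithelium, Krt1 and Krt10 of the suprabasal layers, the adhesion gene Perp and the Ly6 family gene Ly6d. Krt17 had 10.5, 6.53, 8.81 and 10.1 RPKM in HET and at most 0.0582 in WT. Perp had 22.6, 10.8, 17.6 and 16.4 RPKM in HET against 2.48, 2.14 and 0.874 in WT (3.29 ± 0.38, adjusted p = 0.00163). The median log2 difference of the 19 was 4.85, a value that depends on the low WT levels, and it was -0.06 over all genes. Summed over the list, HET libraries held 114.5 to 265.7 RPKM, WT 16.3 to 18.8, KO 18.7 to 22.5 and old WT 23.7 to 49.2. The sum was 0.0349% to 0.087% of all RPKM of a HET library, against 0.00546% to 0.00602% in WT. Perp had also been measured at 4.5 RPKM or more in each old WT library, so it is not a keratinocyte marker alone.

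A set of 16 genes had the pattern of Krt14, under 0.5 RPKM in every WT library and over 1 RPKM in every HET library. Of these, 9 are in the keratinocyte list, namely Krt14, Krt5, Krt15, Krt17, Krt1, Krt16, Krtdap, Dmkn and Serpinb5. The other 7 include Aqp3 (a water and glycerol channel), Sprr1a (a cornified envelope protein), Lypd3, Trim29, Calm4 and Glycam1. In 15 of the 16 every HET library was above every KO library. The exception was Glycam1, which had 0.326 to 9.42 RPKM in KO and 1.56 to 7.53 in HET. Aqp3 and Sprr1a were also among the 3 largest increases by the naming rule. Aqp3 had 5.77, 5.44, 2.23 and 7.85 RPKM against at most 0.0739. With the keratinocyte list and these 16 genes left out, 575 genes were called, 198 higher and 377 lower.

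**Figure D2:**
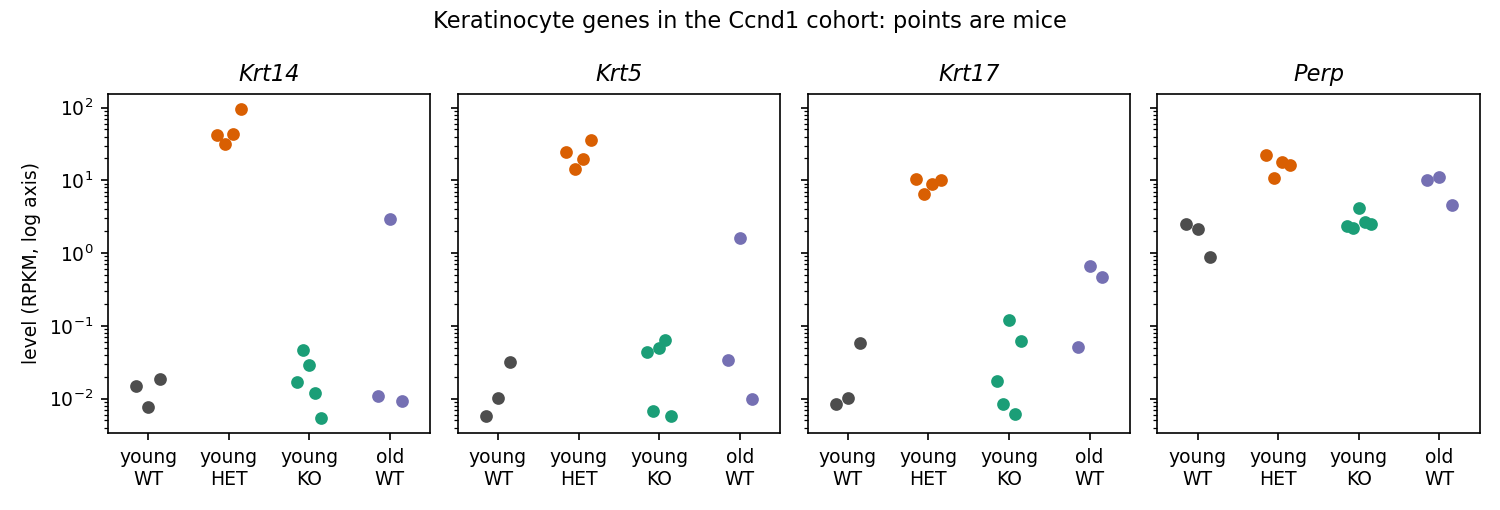
Levels of Krt14, Krt5, Krt17 and Perp (RPKM, log axis) in each library of the Ccnd1 cohort, with 1 point per mouse. The 4 HET libraries lie between 31.9 and 95.8 RPKM for Krt14, where WT and KO libraries lie under 0.05, and old WT 2 lies at 2.92.

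Because all 4 HET libraries and no WT library held these transcripts, keratinocyte RNA and the HET genotype cannot be told apart in this comparison. With the mean log2 level of the keratins as a covariate, 1 gene of 11337 was called, and 11 of the 611 calls changed sign. The standard errors grew in that fit, while the differences of the genes described below moved both ways: Npy went from 2.09 ± 0.26 to 2.84 ± 0.63, Hes1 from 1.21 ± 0.22 to 1.93 ± 0.52, Il6 from 1.32 ± 0.25 to 1.26 ± 0.65 and Angptl4 from 1.47 ± 0.26 to 0.72 ± 0.63. Pcdh18 lay at -1.35 ± 0.51 and Ccnd1 at -0.40 ± 0.40. The slope of the covariate came from differences within groups, which were values near the floor, old WT 2 and the spread of HET. It was then extrapolated over the whole gap between HET and WT. These adjusted differences therefore cannot measure the part of keratinocyte RNA, and no conclusion is drawn from them. KO levels are given beside the main genes, and Krt14 was at or under 0.0471 RPKM in those libraries.

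In all, limma called 611 of 11337 genes (5.39%), 225 higher (1.98%) and 386 lower (3.4%) in HET, and 82 and 48 of them changed over 2-fold. At an unadjusted p under 0.05 there were 2615. With median-of-ratios scaling the split turned to 272 higher and 187 lower, so the excess of lower genes depends on the scale, which moved the median of all genes from -0.06 to -0.01. For 2403 genes (21.2%) the 4 HET and 3 WT libraries did not overlap, 785 with HET above and 1618 below. The count of calls depended on single libraries: it was 524 without WT 1, 68 without WT 2, 259 without WT 3, 266 without HET 1, 198 without HET 2, 621 without HET 3 and 157 without HET 4. The deposited values lack 6 directions of variation, and 35.1% of the HET minus WT contrast lies in them. None of the contrast lies there when the 3 WT and 6 young locked-wheel libraries form 1 control group. That alternative, chosen after seeing the data, called 2214 genes (770 higher, 1444 lower), among them 588 of the 611. Of the WT minus young locked-wheel contrast, 92.0% lies in the missing directions. The deposited values thus hold little of any difference between these groups, so the 588 calls are not support from separate controls. The limma fit takes no account of the missing directions, so its standard errors and p may be too small.

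**Figure D3:**
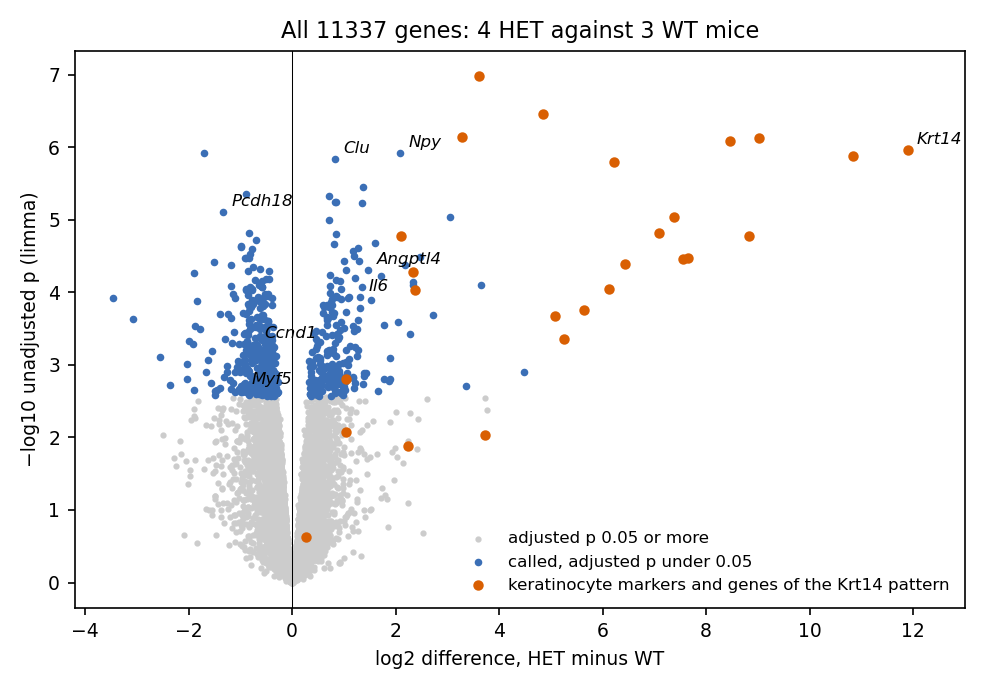
Each point is 1 of 11337 genes, with its log2 difference (HET minus WT, horizontal) and −log10 of its unadjusted limma p (vertical). Called genes are blue, and the keratinocyte markers and the 16 genes of the Krt14 pattern are orange and lie to the right. The horizontal place of those with WT levels near 0.01 RPKM depends on that floor, and Ccnd1 lies at -0.70.

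Outside the epithelial genes, and counting only those averaging 5 RPKM or more, the largest increase was Npy, the gene of neuropeptide Y (mm10 chromosome 6, 49822710 to 49829507). Npy had 5.71, 7.89 and 5.03 RPKM in WT and 40.9, 23.7, 16.9 and 27.8 RPKM in HET. The groups were well apart, although HET spread more than WT. The difference was 2.09 ± 0.26 (SE), 4.26-fold (adjusted p = 0.00163), and KO held 12.6 to 20.7 RPKM. Postn, which encodes the matrix protein periostin, had 3.67, 1.76 and 1.06 RPKM in WT and 7.61, 8.84, 6.01 and 6.18 in HET (1.90 ± 0.44). Angptl4, which encodes an inhibitor of lipoprotein lipase, had 66.1, 56.9 and 49.5 RPKM in WT and 157, 186, 125 and 173 in HET (1.47 ± 0.26), and 75.1 to 179 in KO. Both were higher in each HET library than in any WT library. Trim16, a tripartite motif gene, rose by 1.28 ± 0.21, from 2.8 ± 0.459 to 6.84 ± 1.42 RPKM (SD). Procr, the protein C receptor, rose from 22.5 ± 9.45 to 49.6 ± 12.8 RPKM, Arhgef3, a guanine nucleotide exchange factor, from 3.9 ± 1 to 8.7 ± 0.757, and the chemokine gene Cxcl16 from 6.41 ± 1.71 to 14.6 ± 3.42. These 3 were added after their values were seen, to replace the 3 epithelial genes. Npy, Angptl4, Trim16 and Arhgef3 kept their calls whichever of the 7 libraries was omitted. Postn (lost without WT 2, WT 3, HET 1, HET 2 or HET 4, highest adjusted p = 0.124), Procr (WT 2, WT 3 or HET 2, 0.0759) and Cxcl16 (WT 2, HET 2 or HET 4, 0.107) did not.

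Inflammatory signalling genes were represented by the cytokine gene Il6, whose upstream sequence is printed above. Il6 had 61.1, 45.7 and 47.3 RPKM in WT and 140, 192, 87.4 and 112 RPKM in HET. All HET libraries were higher, HET 2 the most. The difference was 1.32 ± 0.25 (SE, adjusted p = 0.0136), 2.5-fold, and KO held 83.1 to 184 RPKM. The chemokine gene Cxcl12 rose by 0.73 ± 0.14, from 17.6, 13.5 and 16.5 RPKM to 25.2, 24.1, 24.9 and 31.2. Both were lost without WT 2 (adjusted p up to 0.0692 for Il6 and 0.0757 for Cxcl12). Of 26 measured NF-kB and inflammation genes these 2 rose and none fell, where 5.39% of all genes were called. Of the 26, 21 had a positive difference, against 4693 of all 11337 genes, and the median was 0.36. The NF-kB subunit gene Rel (0.62 ± 0.18), the inhibitor gene Nfkbia (0.61 ± 0.20) and the chemokine gene Ccl2 (0.86 ± 0.29) did not pass, and Rela, the main activating subunit, lay at -0.24 ± 0.12. Haematopoietic markers had 0 of 14 called by limma (2 at an unadjusted p under 0.05) and a median of 0.33. Their sum was 113 to 195 RPKM in WT and 136 to 192 in HET, and their part in the inflammation values was not tested.

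Of 20 measured genes of Notch signalling, which helps to keep satellite cells quiescent, 3 rose. Hes1, a repressor switched on by Notch, had 11.7, 10.6 and 8.68 RPKM in WT and 19.8, 26.2, 24.1 and 25.4 RPKM in HET. The groups did not overlap, and the difference was 1.21 ± 0.22 (SE, adjusted p = 0.0121), with 13.6 to 30.1 RPKM in KO. Dll4, a Notch ligand gene, had 3.92, 3.03 and 2.67 RPKM in WT and 5.31, 6.86, 5.39 and 5.35 in HET (0.85 ± 0.14), and the ligand gene Dll1 had 3.77, 3.74 and 3.7 against 5.59, 6.99, 5.16 and 6.8 (0.70 ± 0.19). None of the 20 fell, and the median was 0.05. For 4 of the 20 every HET library lay above every WT library, and for 3 below. Over all genes 5.39% were called and 21.2% did not overlap. The receptors did not pass, among them Notch1 at 0.07 ± 0.16 and Notch3 at -0.10 ± 0.12, nor did the targets Hey1 (0.53 ± 0.17) and Heyl (0.43 ± 0.23). Hes1 and Dll4 kept their calls in each omission of a library, while Dll1 lost it in all but the omission of HET 3 (highest adjusted p = 0.151) and against the 9 controls together (adjusted p = 0.159). Dll4 is also an endothelial gene, and 1 of 15 endothelial markers rose, the tight junction gene Cldn5 (0.77 ± 0.19, adjusted p = 0.0343). Endothelial markers summed to 164 to 227 RPKM in WT and 217 to 244 in HET, and their part in the ligand values was not tested.

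Of 25 measured satellite cell identity genes 3 fell and Hes1 rose, where 3.4% of all genes were called lower and 1.98% higher. Pax7, the transcription factor that defines the lineage, had 24.5, 21.9 and 29.2 RPKM in WT and 16, 16.3, 19.6 and 19.5 in HET (-0.49 ± 0.13, adjusted p = 0.0418). Myf5, a myogenic transcription factor of primed satellite cells, had 234, 220 and 172 RPKM in WT and 141, 117, 110 and 72.4 in HET (-0.95 ± 0.26, adjusted p = 0.0458). The N-cadherin gene Cdh2, an adhesion molecule of the niche, fell by 0.77 on the log2 scale. In each case every HET library lay below every WT library. That held for 7 of the 25, and for 1 every HET library lay above. Over all 11337 genes it held for 1618 below and 785 above. The other 21 identity genes were not called, and the median was -0.14. The 3 falls were not secure: each was lost in 6 or more of the 7 omissions (highest adjusted p = 0.131 for Pax7, 0.157 for Cdh2 and 0.174 for Myf5) and under median-of-ratios scaling (0.0655, 0.0604 and 0.0584), with the direction kept. KO held 17.7 to 24.6 RPKM of Pax7 and 138 to 301 RPKM of Myf5. Vcam1 (-0.24 ± 0.15), Calcr (-0.22 ± 0.14), Itga7 (-0.11 ± 0.10) and Myod1, the activation factor (-0.40 ± 0.23), did not pass.

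The largest decrease by the naming rule was Mir23b, the locus whose hairpin is printed above. It had 16.1, 19.6 and 13.8 RPKM in WT and 7.33, 4.91, 5.39 and 2.61 RPKM in HET, so all HET libraries were lower (-1.78 ± 0.37, adjusted p = 0.0209). KO held 6.25 to 15.6 RPKM. Reads from polyA libraries over a 74-base locus are not the mature microRNA, and the locus lies inside 2010111I01Rik on the same strand (mm10 chromosome 13, 62964893 to 63326096). That gene had 25.3, 26.6 and 23.5 RPKM in WT and 21.2, 24.9, 16.4 and 19.6 in HET, and did not pass (-0.31 ± 0.16, adjusted p = 0.252). The Mir23b call was lost without WT 2, HET 2 or HET 4 (highest adjusted p = 0.104).

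Pcdh18, which encodes the cell adhesion protein protocadherin 18 (mm10 chromosome 3, 49743296 to 49757325), had the lowest p of the 10 decreases named by size. It had 41.3, 29.5 and 35.1 RPKM in WT and 13.2, 16.3, 13 and 13.1 in HET, a fall of every HET library below any WT library (-1.34 ± 0.20, SE, adjusted p = 0.00495). KO lay between, at 18 to 36.7 RPKM, and above HET by the fit (adjusted p = 0.0284), a contrast in which 6.04% of all genes were called. Coch, a gene of the extracellular protein cochlin, had 9.32, 10.9 and 10.2 RPKM in WT and 4.69, 3.87, 4.18 and 5.27 in HET (-1.18 ± 0.21). Pccb, a subunit of the mitochondrial propionyl-CoA carboxylase, fell from 6.82 ± 0.863 to 3.49 ± 0.904 RPKM (SD, -0.99 ± 0.16). Cdh4 (R-cadherin, -1.15 ± 0.30), Lmod2 (an actin filament nucleator of muscle, -1.10 ± 0.30) and Hspa12a (a heat shock protein 70 family gene, -0.99 ± 0.27) fell too. Pcdh18 and Pccb kept their calls in every omission of 1 library, and Coch lost it without WT 2 (adjusted p = 0.0513). Cdh4 lost it in all 7 (up to 0.125), Lmod2 in all but that of WT 1 (up to 0.174) and Hspa12a in all but that of WT 2 (up to 0.146). All 3 were also lost under median-of-ratios scaling (0.0513, 0.0611 and 0.0611).

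Vgll3 and Ankrd1 both belong to TEAD biology as background, Vgll3 as a cofactor of TEAD factors and Ankrd1, a stress-induced ankyrin repeat protein of muscle, as a known target. Vgll3 had 29.6, 30 and 21.4 RPKM in WT and 12.5, 14.6, 12 and 9.94 in HET (-1.13 ± 0.22, adjusted p = 0.0136). KO held 16.5 to 35.1 RPKM and lay above HET (adjusted p = 0.0125). Ankrd1, with its 2 MCAT matches upstream, had 131, 172 and 74.8 RPKM in WT and 45.4, 55.9, 69.4 and 51.7 in HET (-1.11 ± 0.24, adjusted p = 0.0214), and 71.4 to 116 in KO. Its WT libraries spread widely, and WT 3 lay only just above the highest HET library. Vgll3 lost its call without WT 2 (adjusted p = 0.0692), and Ankrd1 without WT 1, WT 2, HET 1, HET 2 or HET 4 (up to 0.116).

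**Figure D4:**
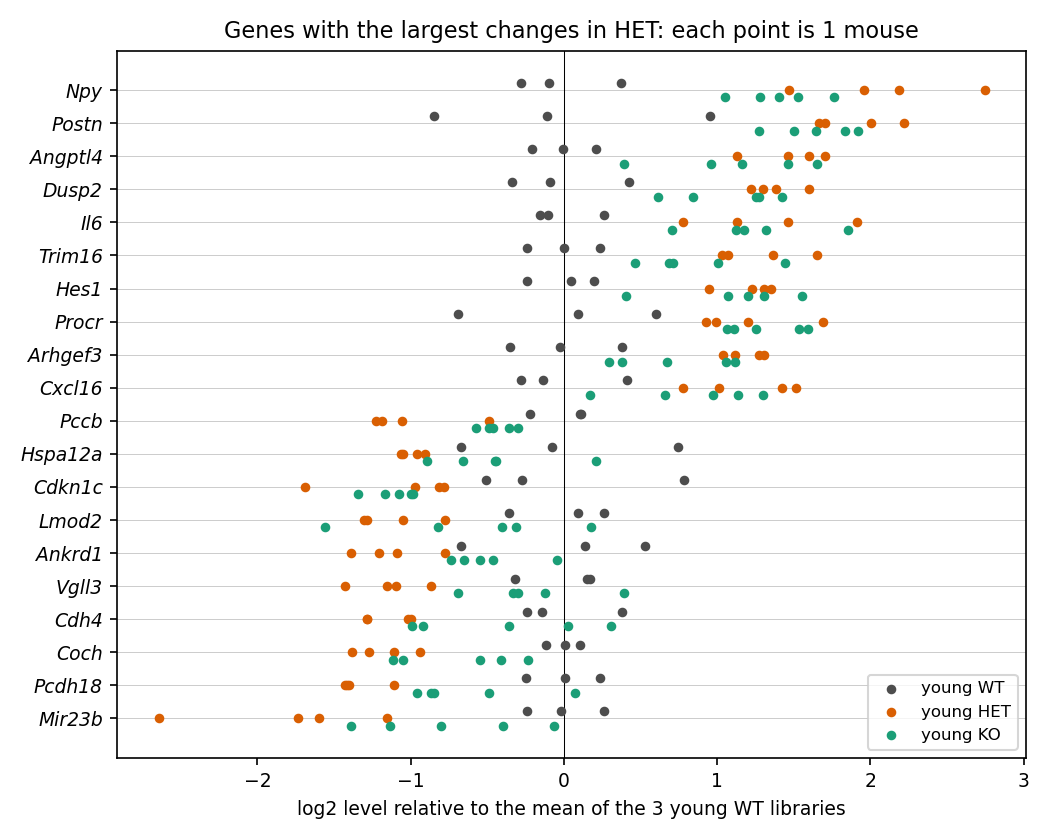
Log2 level of each young library relative to the mean of the 3 WT libraries, for the 10 non-epithelial genes with the largest increases and the 10 with the largest decreases in HET (each point is 1 mouse; WT, HET and KO in separate rows). HET points lie beyond all WT points for each gene, as the naming rule required, and KO points lie near HET for Il6 and Hes1 and nearer WT for Vgll3.

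Of 7 measured Cdk inhibitors 1 fell. Cdkn1c, the Cdk inhibitor p57, had 27, 31.7 and 66 RPKM in WT and 21.8, 22.3, 11.9 and 19.6 in HET (-1.06 ± 0.26, adjusted p = 0.0365), with WT 3 far above the other WT libraries, and 15.1 to 19.4 RPKM in KO. Cdkn1a (p21) lay at -0.28 ± 0.20 and Cdkn1b (p27) at 0.29 ± 0.20. None of 16 Rb, E2F and G1/S cyclin genes was called by limma, and 3 had an unadjusted p under 0.05. Their lowest p was that of Tfdp1, the E2F partner, at -0.31 ± 0.11 (adjusted p = 0.107). One of 37 replication genes fell, Gins1 of the replicative helicase, from 2.8 ± 0.653 to 1.47 ± 0.348 RPKM (SD). One of 13 mitotic genes fell, the spindle gene Tpx2, which had 1.06, 1.27 and 2.04 RPKM in WT and 0.726, 0.606, 0.718 and 0.576 in HET (-1.10 ± 0.28). For 4 of the 13 every HET library lay below every WT library, as for 1618 of all 11337 genes. Over all genes 3.4% were called lower. The median of the 13 was -0.51, against -0.06 over all genes, where Mki67 lay at -0.51 ± 0.48 and Top2a at -0.69 ± 0.39, and all 13 averaged under 4 RPKM in WT. Cdkn1c, Gins1 and Tpx2 lost their calls without WT 2, WT 3, HET 1, HET 2 or HET 4, and Cdkn1c also without HET 3 (highest adjusted p = 0.0837, 0.134 and 0.127). Gins1 and Tpx2 were also lost under median-of-ratios scaling (0.0611 and 0.0511). Ccng1, a p53 target, fell from 10.6 ± 1.94 to 6.9 ± 0.898 RPKM (-0.62 ± 0.13), and was lost without WT 2, WT 3, HET 2 or HET 4 (up to 0.117). The other call among 23 p53 genes was Perp, which is also in the keratinocyte list.

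Of 32 immediate early genes 2 rose, a share near the 5.39% called over all genes. Dusp2, a phosphatase that switches off MAP kinases, had 4.69, 3.28 and 2.76 RPKM in WT and 8.59, 8.13, 9.12 and 10.6 in HET (1.38 ± 0.19, SE, adjusted p = 0.00335), and 5.35 to 9.38 in KO. Klf2, a transcription factor of quiescence in several cell types, had 28.8, 28.1 and 19.7 RPKM in WT and 52.2, 55.6, 47.1 and 46.4 in HET (1.00 ± 0.17, adjusted p = 0.00964), and 27.7 to 47.8 in KO. Both kept their calls in each omission. The median of the 32 was -0.08, so the list as a whole did not lie above all genes. Dusp7, a phosphatase of ERK, rose by 0.90 ± 0.20 as the only call of 17 FGF and ERK feedback genes, with overlapping groups. Tgfb1, the ligand TGF-beta 1, had 2.99, 3.13 and 3.44 RPKM in WT and 5.54, 7.84, 4.41 and 6.79 in HET (0.92 ± 0.20, adjusted p = 0.0209), the only call of 29 TGF-beta genes. It was lost without WT 2, HET 2 or HET 4 (up to 0.092), and Dusp7 without WT 1, WT 2, HET 1, HET 2 or HET 4 (up to 0.127).

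Other groups held 0 to 2 calls each, where 5.39% of all genes were called. Of 41 extracellular matrix genes Postn rose and the membrane protease gene Mmp14 fell (-0.42 ± 0.11). Of 22 nuclear receptors 2 fell, among them the retinoic acid receptor gene Rarb (-0.61 ± 0.17). Of 24 antioxidant genes Gpx1, a glutathione peroxidase, rose (0.54 ± 0.13) and the transferase gene Gstm2 fell (-0.50 ± 0.14). Dbp, a clock output factor, rose (0.79 ± 0.21) among 19 circadian genes. Nop58, a core protein of small nucleolar particles, fell from 91.4 ± 9.36 to 63.6 ± 4.2 RPKM (-0.52 ± 0.12), the only call of 30 ribosome biogenesis genes. Of 47 cytosolic ribosomal protein genes 44 had a positive difference (median 0.24), against 4693 of all 11337 genes. Limma called none of these 47, nor of 44 oxidative phosphorylation, 32 interferon, 28 stress response, 23 cholesterol, 20 glycolysis and 10 double-strand break repair genes. In the same order 1, 2, 4, 1, 4, 2 and 2 members had an unadjusted p under 0.05. Of those lists the lowest p values belonged to Rpl23, Ndufa10, Irf1, Ppp1r15a, Mvd, Ldha and Fancd2, with adjusted p of 0.198, 0.162, 0.0763, 0.0987, 0.0938, 0.156 and 0.183. The calls of Mmp14, Rarb, Gpx1, Gstm2, Dbp and Nop58 were each lost in 5 or more of the 7 omissions (up to 0.187, 0.139, 0.104, 0.228, 0.186 and 0.0706), always including those of WT 2 and HET 4. Mmp14, Rarb and Gstm2 were also lost under median-of-ratios scaling.

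**Figure D5:**
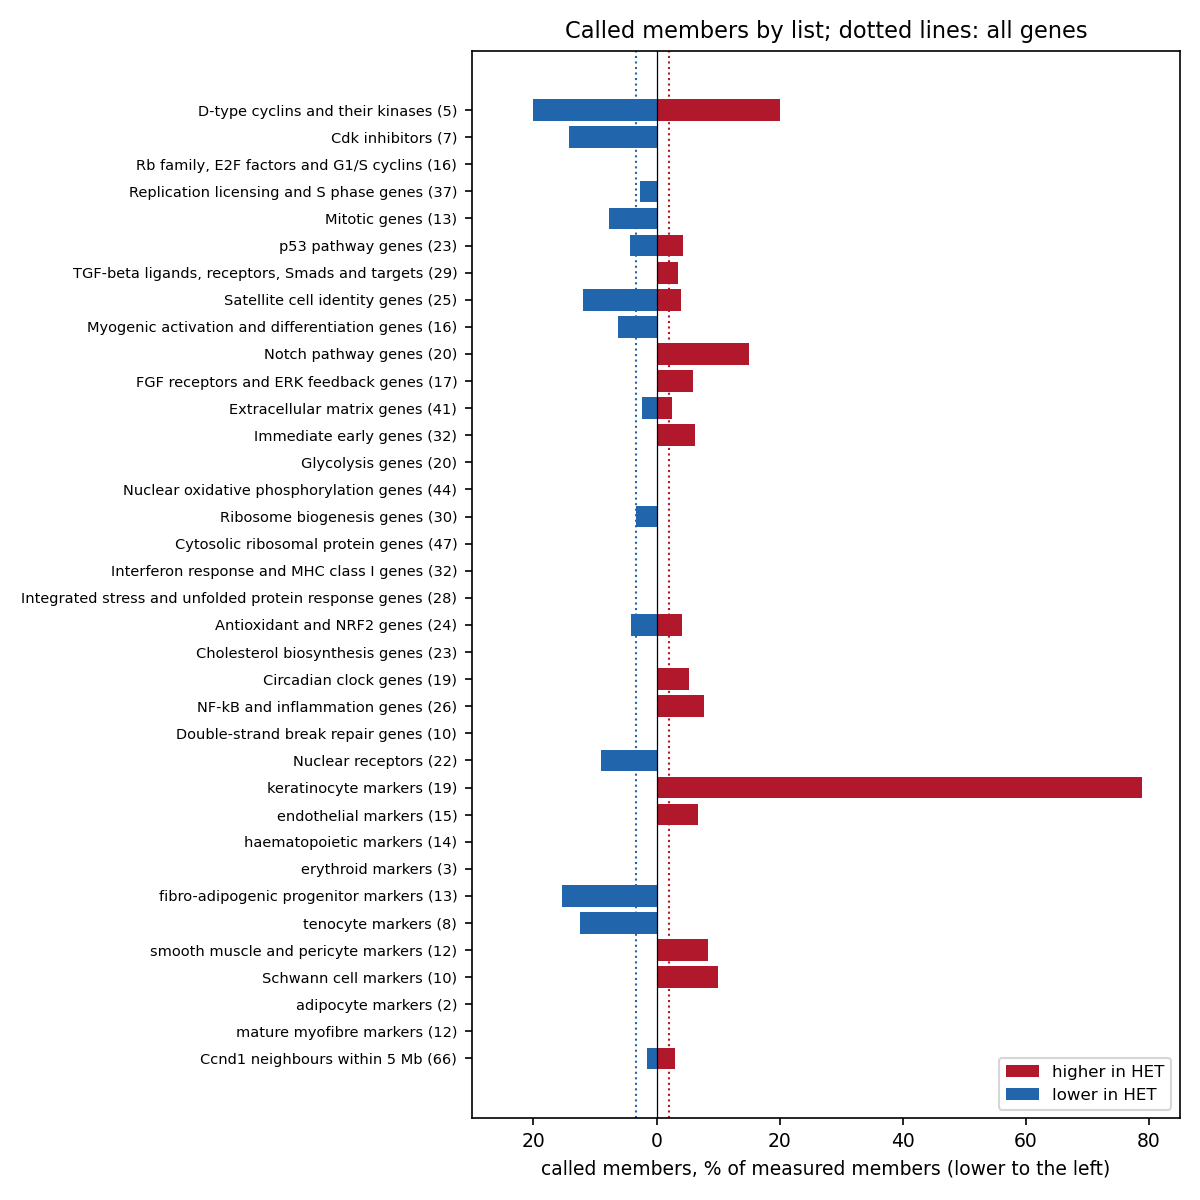
Share of the measured members of each list that were called higher (red, to the right) or lower (blue, to the left) in HET, with the number measured in brackets and dotted lines at the shares over all genes (1.98% and 3.4%). Keratinocyte markers hold 15 of 19 higher, and most other lists hold 0 to 3 calls. The keratinocyte share may be partly fixed in advance, because some markers may be in the gene set only through HET.

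Markers of other cells that the sort could hold held fewer calls than keratinocyte markers. Over all genes 1.98% were called higher and 3.4% lower. In lists this small, 0 to 2 calls say little about a cell type. Fibro-adipogenic progenitor markers mark the stromal cells of muscle. They summed to 883 to 1574 RPKM in WT, 704.5 to 766 in HET and 1017 to 1114 in KO. Every HET library thus lay below every WT and KO library. The larger part of each WT and HET sum was Gsn, and without Gsn the WT and HET sums overlapped. The median difference of the 13 markers was -0.21, and 3 had a positive difference. Of 13 measured, 2 fell: Gsn, an actin-severing protein, had 529, 820 and 1181 RPKM in WT and 385, 372, 489 and 448 in HET (-0.93 ± 0.20), and Clec3b fell by 1.67. Gsn was lost without WT 2, WT 3, HET 1, HET 2 or HET 4 (up to 0.0967) and Clec3b in all 7 omissions (up to 0.14). The tendon factor gene Mkx fell from 3.65 ± 1.34 to 1.7 ± 0.122 RPKM and lay at 3.46 ± 0.459 in KO (KO above HET, adjusted p = 0.0113), a call lost without WT 1, WT 2, HET 2 or HET 4 (up to 0.138). It was the only call of 8 tenocyte markers, of which 4 had a positive difference, and their sum overlapped (42.7 to 199.6 RPKM in WT, 95.1 to 108.9 in HET). Of 12 smooth muscle and pericyte markers the proteoglycan gene Cspg4 rose (0.83 ± 0.21), the median was 0.53 and 10 had a positive difference. Their sum overlapped, at 341 to 552 RPKM in WT and 454 to 634 in HET. Of 10 Schwann cell markers the receptor gene Gfra3 rose (2.28 ± 0.50, from 0.26 ± 0.134 to 1.2 ± 0.334 RPKM), with a median of 0.09, 6 positive differences and a sum of 345 to 413 RPKM in WT and 317 to 355 in HET. Cspg4 was lost without WT 2, WT 3, HET 1, HET 2 or HET 4 (up to 0.175) and Gfra3 without WT 2, WT 3, HET 1 or HET 4 (up to 0.106). Of 14 haematopoietic, 3 erythroid, 2 adipocyte and 12 myofibre markers none was called by limma, and 2, 1, 0 and 2 had an unadjusted p under 0.05. Fewer cells of a type and less RNA per cell cannot be told apart in such bulk samples.

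A floxed allele carries flanking chromosome from the line in which it was made, so the neighbours of Ccnd1 were counted. The 66 measured genes within 5 Mb lie almost all at lower positions on the chromosome than Ccnd1. Only Tpcn2 lies wholly at higher positions, 247 kb away, and Oraov1 overlaps Ccnd1, so the count describes mainly the flank at lower positions. Of the 66, 2 were higher and 1 lower, against 5.39% called over all genes. They were Ifitm1, an interferon-induced membrane protein (2.14, 0.884 and 1.26 RPKM in WT and 4.48, 4.16, 3.83 and 3.01 in HET, 1.52 ± 0.30), Tssc4, a splicing factor (0.69 ± 0.14), and Cdkn1c. Ifitm1 was lost without WT 2 (adjusted p = 0.0771) and Tssc4 without WT 2, WT 3 or HET 4 (up to 0.0634).

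A set of 55 genes was called with all libraries and again in each of the 7 omissions, a set chosen after the values were seen. Of them 16 are keratinocyte markers or genes of the Krt14 pattern, and 23 of the other 39 were higher and 16 lower. Beside those described, Clu, which encodes the secreted chaperone clusterin, had 62.1, 47.9 and 49.5 RPKM in WT and 94.1, 91, 98.4 and 93.4 in HET (0.83 ± 0.11, SE, adjusted p = 0.00163), and 71.1 to 85.4 in KO. Maob, a monoamine oxidase, had 20.5, 23.8 and 22.1 RPKM in WT and 11.7, 10.3, 15.2 and 11.2 in HET (-0.88 ± 0.13), and 13.5 to 17.8 in KO. For both genes HET and WT did not overlap, and all KO libraries of Clu lay between them. Irak2, a kinase adaptor of interleukin 1 receptors, rose by 1.36 ± 0.20 and Prkcd, a protein kinase C, by 0.71 ± 0.11. Below 5 RPKM, Nrn1, the gene of neuritin, had 0.0459 to 0.241 RPKM in WT, 0.719 to 1.54 in HET and 0.89 to 1.66 in KO (3.04 ± 0.46).

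Some of the 39 genes differed between HET and both other genotypes. Zc3h12a, an RNase that degrades inflammatory mRNAs including that of Il6, had 17.7, 22.6 and 20.7 RPKM in WT, 36.8, 41.1, 35.5 and 39.8 in HET and 18 to 31.7 in KO. HET was above WT (0.92 ± 0.17, adjusted p = 0.0122) and KO below HET (adjusted p = 0.00857). Ndn, the growth-restraining protein necdin, had 4.18, 4.81 and 6.17 RPKM in WT, 2.87, 2.96, 2.95 and 2.92 in HET and 5.13 to 6.31 in KO (HET minus WT -0.77 ± 0.13; KO above HET, adjusted p = 0.000853). Serpinf1, the secreted factor PEDF, had 68.2, 68.5 and 82.1 RPKM in WT, 53.4, 44.6, 46.9 and 49.9 in HET and 62.3 to 79 in KO (-0.58 ± 0.11; KO above HET, adjusted p = 0.0062). The lipase gene Pla1a had 1.4, 1.64 and 2.29 RPKM in WT, 0.518 to 0.567 in HET and 1.23 to 1.66 in KO (-1.69 ± 0.22; KO above HET, adjusted p = 0.00181). For these 4 genes the HET libraries, which alone among the young libraries held keratins, were set off from WT and KO together, and the part of keratinocyte RNA in that was not tested.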

How the data were processed

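RNA of sorted MuSCs was reverse transcribed with oligo(dT) priming and sequenced as paired reads, per the labels' protocols. Per the submitters' processing notes, Trim Galore, STAR, featureCounts and Subread were used with the mm10 build. No version and no strand setting is stated there, so antisense and overlapping genes are uncertain. The authors deposited 11337 genes by 36 libraries in RPKM, together with their own correlation coefficient with Ccnd1, a score that was not used. The log2 matrix had rank 29 where 35 is possible, so 6 directions had been removed by a method that the labels do not state. Depth per library is unknown, and so no counting interval is given. No column of per-sample values was left unmapped. Gene positions came from GENCODE (11335 identifiers matched).

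Log2 RPKM without a pseudocount was fitted with limma 3.58.1 (R 4.3.3, eBayes with trend and robust). The fit had 1 mean per group over the 15 Ccnd1-cohort libraries, and Benjamini-Hochberg adjustment ran over all genes. Its 11 residual degrees of freedom are nominal, because they take no account of the 6 removed directions. Ccnd1 was also tested by exact permutation. Genes were named by size (mean of at least 5 RPKM, groups that do not overlap, the 10 largest in each direction), by list (up to 3 called in each direction by lowest p, or the lowest p where none was called) and always for D-type cyclins with their kinases, Pax7, Myod1, Krt14, Krt5 and called neighbours. Members, lists and rules were chosen with earlier results of these data known. Lists comprised 26 gene groups, of which mitochondrially encoded genes had no measured member, and 10 sets of cell markers. Alternatives were pseudocounts, filters, scaling, libraries fitted, a replicate block, a keratin covariate and omission of each library. Results on some of the named genes are not reported here.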

Additional observations from a re-analysis of the deposited data

Results flagged for a closer look

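Among the 71 genes named and the summed markers, a test for a library far from the other 3 HET libraries (Dixon's ratio of the gap to the range) picked out 7 measures, and chance picks about 1 in 20. HET 2 was the highest in 3 genes, with Pcdh18 at 16.3 RPKM where the others had 13 to 13.2, Dll4 at 6.86 where they had 5.31 to 5.39, and Mmp14 at 26.9 where they had 18.4 to 19.5. HET 2 thus lay nearest WT for Pcdh18 and farthest from it for Dll4. HET 3 had the lowest Ldha (182 against 227 to 236 RPKM). HET 4 had the highest Cxcl12, at 31.2 against 24.1 to 25.2 RPKM, and HET 1 the highest Fancd2, at 1.37 against 1.13 to 1.17. Tenocyte markers summed to 108.9 RPKM in 1 HET library and 95.1 to 96.1 in the others.

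Outside the comparison, old WT 2 held 2.92 RPKM of Krt14 and 1.62 RPKM of Krt5, where the other old WT libraries held at most 0.0109 and 0.0344.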

How the results depend on the processing

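The count of 611 called genes (225 higher, 386 lower) changed with a minimum mean of 5 RPKM to 248 (82 and 166), with the 7 libraries fitted alone to 300 (136 and 164), and with an adjusted p under 0.1 to 1222 (441 and 781). Median-of-ratios scaling gave 459 (272 and 187), and the 9 controls together 2214 (770 and 1444). With the keratin covariate 1 gene was called (0 and 1), and the signs of Fabp4 (-0.053) and Cdk4 (0.062) turned. Krt5 (-0.021) and Krt14 (0.021) mirrored each other there because the covariate is the mean of their log2 levels, so the turned sign of Krt5 is not a result. Leaving out 1 library gave 68 to 621 genes, 43 to 267 higher and 25 to 354 lower. Without any 1 library the Ccnd1 difference was -0.77 to -0.61, and the exact permutation test could not go below 0.0667 or 0.1. Of 55 named genes called, 53 kept the call with a pseudocount of 1, 44 with median-of-ratios scaling and 34 with the 7 libraries alone.

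Replicate numbers are shared by WT and HET. In the deposited values same-numbered libraries did not deviate together (correlations 0.05, -4.5e-05 and -0.02). Because 6 directions had been removed from those values, the correlations cannot tell whether the numbers pair the libraries. With a replicate block 179 genes were called (83 higher, 96 lower), and 26 of the 55 named genes kept the call.

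Without counts, precision at low levels is unknown. RPKM near 0.01 cannot be tied to reads, so differences of keratins in log2 depend on that floor. Omissions act on values already adjusted over all libraries and cannot bring back the 6 removed directions.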
